A study of Mus musculus with 12 samples.

Results

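Long intergenic non-coding RNAs (lincRNAs) are transcripts without a recognised protein-coding frame whose genes lie between protein-coding genes. The lincRNAs described here are those expressed by mesenchymal cells, the connective-tissue cells of the gut wall, cultured from the small intestine of mice. A lincRNA was included if the deposited tables give it that biotype, if it had a value in all 12 libraries, and if its mean normalized read count reached 10 in at least 1 of the 4 groups. That left 97 lincRNAs, among 12385 genes that met the same conditions and 14907 genes in any table. The members were thus chosen by their measured levels in these libraries, the same levels that the comparisons use: 52 of them reached the minimum in all 4 groups, 11 in 3 groups, 13 in 2 groups and 21 in 1 group only, and a member of the last kind had to differ between groups.

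Primary cells of C57/Bl6 mice were grown to passage 3 and sorted on GFP, and the 4 groups held 3 libraries each. MyD88ko LPS cells carried the genotype ColVIcre-MyD88F/F-RosamTmG and received 2 µg/ml of LPS from E. coli for 6 hours, and MyD88ko untreated cells had the same genotype without LPS. The wt LPS and wt untreated cells were labelled MyD88F/F-RosamTmG, with and without the same LPS dose. All 4 groups thus shared the floxed MyD88 allele, the RosamTmG reporter and an overnight serum starvation. The sample labels give the wt cells no Cre, whereas the design text calls them Cre-positive. If the sample labels hold, a genotype difference may belong to the deletion, to Cre itself or to which cells the GFP sort took. These cannot be told apart. ColVIcre expresses Cre from a collagen VI promoter, which is active in part of the mesenchyme. The age of the mice is not given in the sources used here, and the replicate numbers are not tied to separate animals, so p-values measure the spread between libraries, which may be technical. The untreated libraries carry the lower and the LPS libraries the higher of the submitters' library codes, so LPS and library series cannot be told apart. Each group also holds its own run of consecutive codes, so within a treatment genotype and library series cannot be told apart either.

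LincRNAs are usually made at lower levels than messenger RNAs, and many stay in the nucleus. Some act on chromatin or build nuclear bodies, some host small RNAs in their introns or exons, and for most no function is established. LPS comes from the outer membrane of Gram-negative bacteria; its receptor TLR4 passes the signal on through 2 adaptor proteins, MyD88 and TRIF. The 4 groups allow the LPS response to be read in each genotype and the genotypes to be set against each other with and without LPS.

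Libraries were made with QuantSeq, in which each read comes from near the 3′ end of a polyadenylated transcript, so the last bases of a lincRNA are where its reads are expected. Annotated 3′ ends are shown for the 6 lincRNAs on which the results mainly turn: the last 100 bases, 5′ to 3′, of the GENCODE M21 transcript that reaches furthest 3′ (build GRCm38). Capitals mark the polyadenylation hexamers AATAAA and ATTAAA within the last 50 bases.
Gm20186: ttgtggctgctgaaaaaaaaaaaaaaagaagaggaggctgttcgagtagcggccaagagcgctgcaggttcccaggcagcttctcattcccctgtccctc
Gm20467: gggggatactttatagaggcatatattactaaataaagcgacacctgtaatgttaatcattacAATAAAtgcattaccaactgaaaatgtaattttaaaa
Gm17501: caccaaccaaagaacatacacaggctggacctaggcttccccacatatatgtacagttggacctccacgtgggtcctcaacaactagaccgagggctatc
1110019D14Rik: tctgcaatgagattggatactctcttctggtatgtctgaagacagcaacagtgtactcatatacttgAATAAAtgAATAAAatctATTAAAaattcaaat
1810058I24Rik: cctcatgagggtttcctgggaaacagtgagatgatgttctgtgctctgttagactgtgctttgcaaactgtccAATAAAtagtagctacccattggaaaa
H19: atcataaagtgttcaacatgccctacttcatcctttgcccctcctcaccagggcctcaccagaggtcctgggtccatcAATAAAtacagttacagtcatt
These ends lie at chr6:18845910-18846009 on the minus strand, chr19:43609077-43609176 on the minus strand, chr3:145677481-145677580 on the plus strand, chr6:14044286-14044385 on the plus strand, chr6:35263397-35263496 on the plus strand and chr7:142575529-142575628 on the minus strand. A hexamer began 37 bases from the end in Gm20467, 27 bases from it in 1810058I24Rik and 22 bases from it in H19, and 1110019D14Rik held more than one. The annotated ends of Gm20186 and Gm17501 held neither hexamer in that window, and the end of Gm20186 held a run of 15 A. Of the 16 lincRNAs called in any comparison, 9 had a hexamer there. No match says only that these letters are not in this window.

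The lincRNAs were a small and unevenly shared part of the RNA. Together they took 0.184% to 0.274% of the normalized read counts of a library. Their mean over the 12 libraries ran from 4.333 to 1443 normalized read counts, with a median of 19.42, against 82.0 over all genes tested. Only 18 of the 97 had a mean of at least 100, and 20 were listed at 0 in at least 1 library. The estimated depth was 2500000 to 5300000 counted reads per library, which makes 1 read worth 0.774 to 1.58 normalized counts, so a value near 10 rests on few reads. Replicates of a lincRNA differed more than those of genes as a whole. The median SD within groups was 0.704 on the log2(value + 1) scale, against 0.403 over all genes tested, and 0.407 against 0.297 among genes with a mean of at least 100. Just inside the minimum, with a highest group mean of 10, were 1700007L15Rik, Gm7932, 2810414N06Rik and 5033428I22Rik. Just outside it, at 9.667, were 4632404H12Rik, Gm26916, Gm26857 and Carmn. A further 66 lincRNAs lacked values in part of the libraries and 84 stayed below the minimum.

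In genome position, the 97 lincRNAs were spread over the chromosomes, from 13 on chromosome 5 to 1 on chromosome 14. GENCODE M21 holds the IDs of 96 of them, 86 still typed as lincRNA and 10 now typed otherwise. Exons of 36 overlap an exon of a gene with another ID, 17 of them on the same strand. Among these overlaps are small RNAs within their hosts, such as the snoRNAs of Snhg12, and for Dancr an M21 gene of the same name. Since the strand setting of the counting is not given in the sources used here, reads of overlapping genes could be shared. By whole gene span, 10 lincRNAs overlap a tested protein-coding gene. Among them, RP24-286J21.7 overlaps Gm20388 on the same strand and RP23-354I24.7 overlaps it on the opposite strand, both without exonic overlap. In 24 cases the lincRNA starts within 1000 bases of a protein-coding gene transcribed the other way, a divergent pair. Median exonic length was 2471.5 bases, and the median GC content was 0.4704, against 0.461 over all genes tested.

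Snhg6, a host gene of small nucleolar RNAs (snoRNAs, which guide the modification of ribosomal RNA), was the most abundant lincRNA, at 1831, 1590 and 1299 normalized read counts in MyD88ko LPS libraries, 1458, 1394 and 1731 in MyD88ko untreated, 775, 1092 and 1282 in wt LPS, and 1414, 2002 and 1444 in wt untreated. Gm26917, on chromosome 17 beside a lincRNA that overlaps an annotated ribosomal RNA gene, was the most variable of the abundant ones. It had 540, 1221 and 737 in MyD88ko LPS, 337, 148 and 430 in MyD88ko untreated, 870, 2426 and 1971 in wt LPS, and 1345, 407 and 871 in wt untreated libraries. Its neighbour Gm42418, which overlaps that ribosomal RNA gene by 1822 exonic bases on the opposite strand, ranged from 58 to 410, with both extremes among the wt untreated libraries. Without these 2, the lincRNAs' share of a library was 0.171% to 0.201% in wt LPS libraries, against 0.164% to 0.194% in wt untreated libraries. Next in abundance were 1810058I24Rik, which is reported to encode a mitochondrial micropeptide, Snhg12, another snoRNA host, and Malat1, a nuclear-speckle RNA.

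Several values of the series as a whole bear on these results. Myd88 itself, deleted in the knockout, had 24, 22 and 5 normalized read counts in MyD88ko LPS and 14, 8 and 10 in MyD88ko untreated libraries, against 171, 204 and 213 in wt LPS and 99, 98 and 103 in wt untreated libraries, so its levels follow the labels. All 10 mesenchymal markers were present, with a summed level of 131110 to 141702 in MyD88ko LPS, 88947 to 111227 in MyD88ko untreated, 70515 to 116901 in wt LPS and 43583 to 101141 in wt untreated libraries. Col1a1 and Col1a2 made up most of that sum, and the markers differed in direction: Pdgfra had 73 to 158 in the 6 MyD88ko libraries, against 314 to 611 in the 6 wt libraries, and Pdgfrb had 608 to 816 in MyD88ko LPS against 905 to 1056 in MyD88ko untreated, and 513 to 543 in wt LPS against 883 to 1443 in wt untreated libraries. Leukocyte markers (2 of 6 with values) summed to 12 to 43, and none of 4 endothelial markers had values. Glial and neuronal markers (4 of 5 with values) summed to 516 to 1397 in MyD88ko LPS against 321 to 512 in MyD88ko untreated, and to 1185 to 2539 in wt LPS against 529 to 854 in wt untreated libraries, without overlap in either genotype; nearly all of it was Tubb3. The part of these marker differences in the lincRNA results was not tested. The 6 epithelial markers with values summed to 8 to 36 in MyD88ko LPS, 6 to 10 in MyD88ko untreated and 41 to 55 in wt LPS, and to 1350, 36 and 454 in wt untreated replicates 1, 2 and 3. In wt untreated replicates 1 and 3, Gata3 (957 and 258) made up most of the sum, with Cldn4 (213 and 122) and Krt19 (166 and 62) next. Epcam had 11 and 10 there. Muc2 went the other way, at 0 in all wt untreated libraries against 16, 32 and 11 in wt LPS libraries. Cdh1, Cldn7, Krt18, Krt8 and Vil1 had no complete values. Of 5 hepatocyte markers, 3 had values and summed to 4 to 19 in MyD88ko LPS and 3 to 13 in wt LPS libraries, against 112 to 170 in MyD88ko untreated and 103 to 256 in wt untreated libraries; Alb was at 0 in all 6 LPS libraries. MyD88ko LPS replicate 3 stood apart on the third principal component, at 63.1, against -23.1 to 20.6 for the other libraries. In bulk libraries, fewer cells of a kind and less RNA per cell cannot be told apart.

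In wt cells given LPS, Gm20186, Gm17501, Gm13166, RP24-286J21.7, Gm7932 and 1810058I24Rik rose, and Gm20467, 1110019D14Rik, C030014I23Rik, RP23-354I24.7, Neat1, D930016D06Rik and Snhg6 fell. These 13 of 97 lincRNAs (13.4%) passed limma's adjusted p of 0.05 in wt LPS against wt untreated libraries, where 19.2% of all genes tested passed. The 6 that rose compare with 9.55% of all genes rising, and the 7 that fell with 9.66% falling. Unadjusted p-values under 0.05 were found for 27 lincRNAs, against 32% of all genes. Groups did not overlap for 11 lincRNAs that were higher and 11 that were lower in wt LPS cells, against 17.4% of all genes in each direction. Without wt LPS replicate 1 the count of called lincRNAs was 6, and without wt untreated replicates 1 and 3 it was 8. That joint omission ended the calls of Gm13166, RP24-286J21.7, Gm7932 (limma adjusted p = 0.406), Neat1 (0.349), D930016D06Rik (0.282), C030014I23Rik (0.112), 1810058I24Rik (0.101) and Snhg6 (0.0639), while others, Malat1 among them, passed there and not with all libraries. The median log2 fold change of the lincRNAs was 0.11, against 0.01 over all genes. Of the 52 lincRNAs that reached the minimum in all groups, 7 were among the 13. The share called differed with level: 3 of 50 lincRNAs with an overall mean under 20 were called, 7 of 29 between 20 and 100, and 3 of 18 at 100 or more, against 7.8%, 14.2% and 28.0% of all genes tested at those levels.

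**Figure D1:**
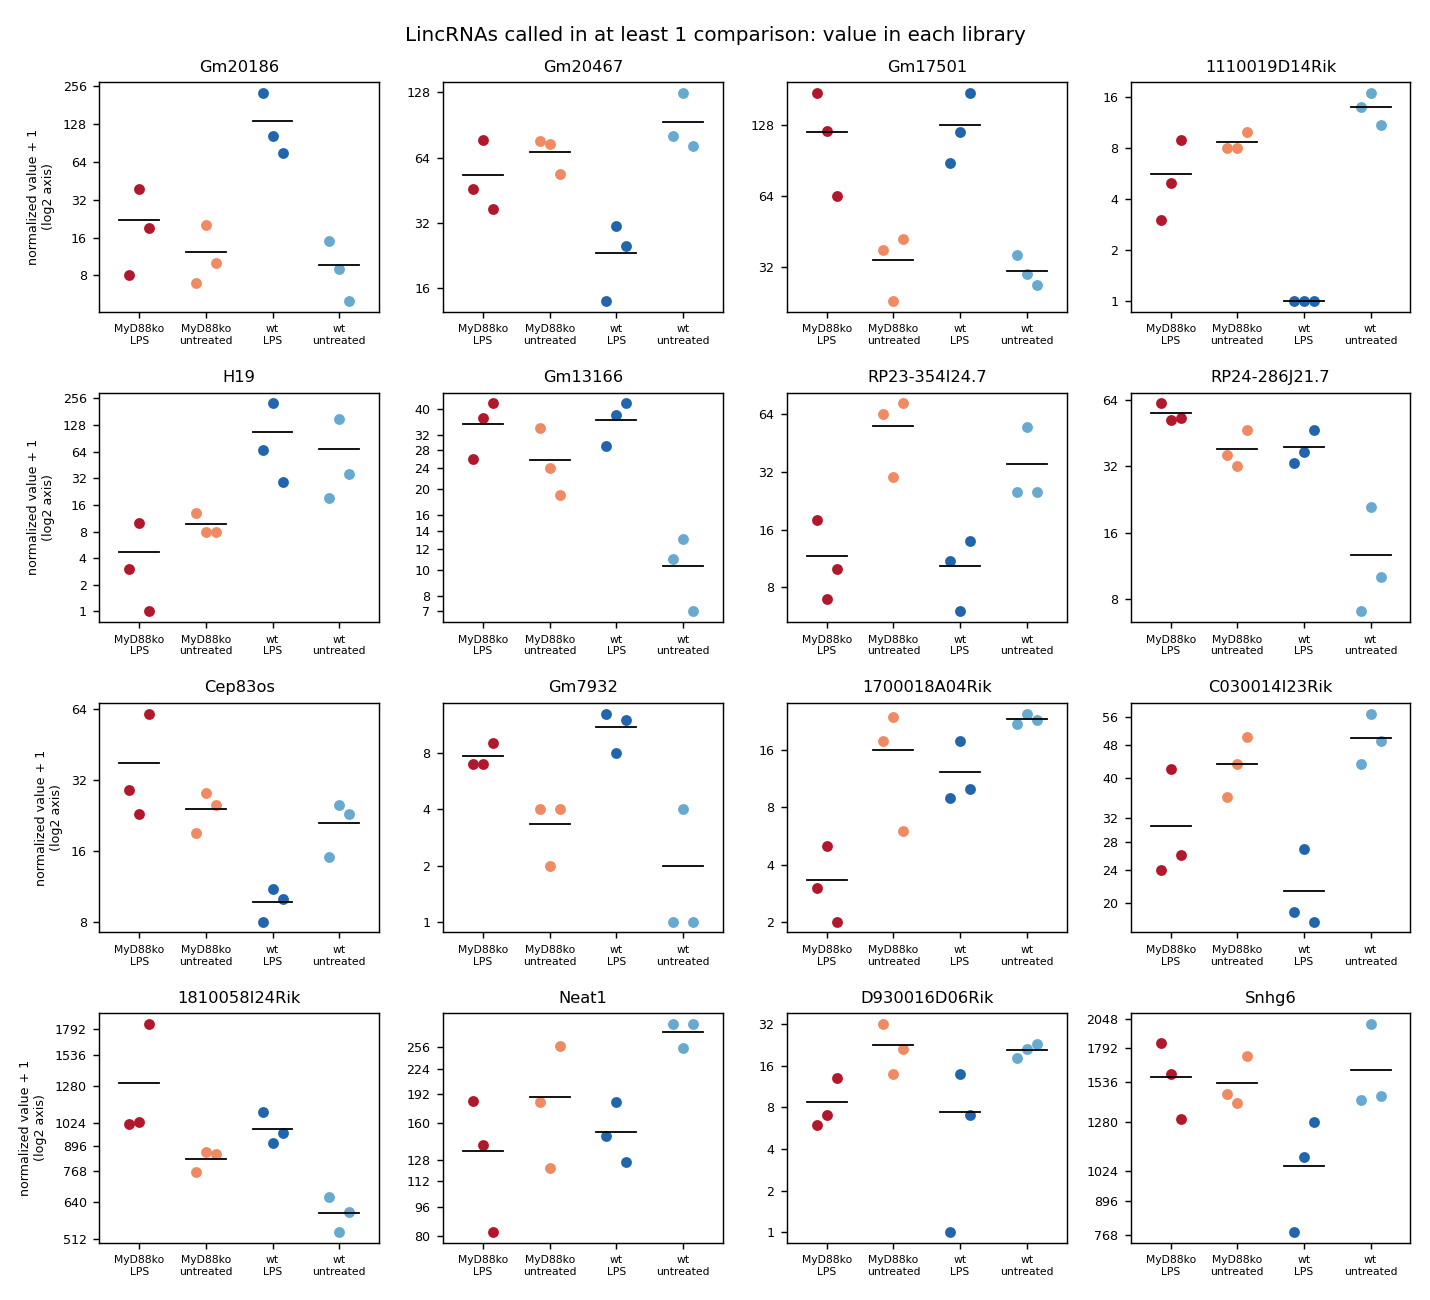
Normalized read count plus 1 (log2 axis) of the 16 lincRNAs called in at least 1 comparison, with a point for each of the 3 libraries of each group and a line at the mean. In wt LPS libraries Gm20186 stands at 227, 102 and 74 and 1110019D14Rik at 0 in all 3.

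Gm20186 (ENSMUSG00000106874), on the minus strand at chr6:18845910-18848207 with 2 exons, had the largest rise with wt LPS. It had 7, 38 and 18 normalized read counts in MyD88ko LPS, 6, 19 and 9 in MyD88ko untreated, 227, 102 and 74 in wt LPS, and 14, 8 and 4 in wt untreated libraries. All 3 wt LPS libraries stood above the other 9. The rise in wt cells was 13.8-fold (log2 fold change 3.78, SE 0.60, limma adjusted p = 0.000233). In MyD88ko cells the log2 fold change with LPS was 0.69 (SE 0.60, limma adjusted p = 0.553), with overlapping groups. Its start lies 372 bases from that of Lsm8, which encodes a subunit of the complex that binds U6 small nuclear RNA and is transcribed the other way, and its exons overlap those of the opposite-strand lincRNA Gm26809 by 855 bases. Lsm8 had 177, 186 and 158 in wt LPS libraries, against 262, 344 and 375 in wt untreated libraries. Lsm8 thus fell (log2 fold change -0.90, SE 0.23, limma adjusted p = 0.0093) where its divergent partner rose.

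Gm17501 rose in both genotypes. This lincRNA (ENSMUSG00000097183), at chr3:145650312-145677580 on the plus strand, had 175, 120 and 63 normalized read counts in MyD88ko LPS libraries, against 37, 22 and 41 in MyD88ko untreated libraries. In wt cells it had 88, 119 and 175 with LPS, against 35, 29 and 26 untreated. Every LPS library stood above every untreated library, whichever the genotype. The rise was 3.34-fold in MyD88ko cells (log2 fold change 1.74, SE 0.37, limma adjusted p = 0.00764) and 4.01-fold in wt cells (2.00, SE 0.37, limma adjusted p = 0.000795). Without MyD88ko untreated replicate 2, the call in MyD88ko cells was lost at an adjusted p of 0.053.

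Cyr61, the gene of a matricellular protein that starts 331 bases from Gm17501 on the other strand, did not pass the test in either genotype. Its values were 3581, 2854 and 1412 in MyD88ko LPS against 2240, 2280 and 2518 in MyD88ko untreated libraries, and 1585, 1340 and 2629 in wt LPS against 1130, 1314 and 2273 in wt untreated libraries. The log2 fold changes of Cyr61 were 0.06 in MyD88ko cells (SE 0.32, limma adjusted p = 0.947) and 0.24 in wt cells (SE 0.32, limma adjusted p = 0.653). Because Gm17501 and Cyr61 start so close together, the RefSeq promoter of Gm17501 is shown (250 bases before to 50 after its start, GRCm38.p6, chr3:145649827-145650126, plus strand); its start lies 235 bases from the deposited one. Capitals mark a TATAAA on the other strand and a GGAATG, the core of the motif bound by TEAD factors.
Gm17501: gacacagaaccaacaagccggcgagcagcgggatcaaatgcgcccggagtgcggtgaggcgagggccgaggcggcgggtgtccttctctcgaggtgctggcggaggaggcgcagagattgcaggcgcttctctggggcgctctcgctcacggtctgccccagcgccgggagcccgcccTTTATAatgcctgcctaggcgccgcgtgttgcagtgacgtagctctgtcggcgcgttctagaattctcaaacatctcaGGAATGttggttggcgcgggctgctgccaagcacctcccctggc
The motifs searched, on both strands of 300-base promoters, were TGANTCA of AP-1, the NF-kB and CArG motifs, GGAATG and TATAAA. RefSeq promoters were found for 66 of the 97 lincRNAs. TGANTCA was in 4.55% of these, against 7.81% of all 32851 promoters, the NF-kB motif in 10.6% against 8.46%, and the CArG motif in 1.52% against 1.63%. GGAATG was in 22.7% against 14.7%, and TATAAA in 12.1% against 13.6%. A match is a description of the letters and not a binding site.

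Gm20467 (ENSMUSG00000092250) had the lowest adjusted p among the lincRNAs that fell in wt cells. Its 2 exons lie at chr19:43609077-43610625 on the minus strand, 1700 bases from Nkx2-3, a homeobox gene of the gut mesenchyme. It had 45, 76 and 36 normalized read counts in MyD88ko LPS, 75, 73 and 53 in MyD88ko untreated, 13, 30 and 24 in wt LPS, and 79, 126 and 71 in wt untreated libraries. The wt LPS libraries stood below the other 9. Gm20467 was 4.07-fold lower in wt LPS than in wt untreated cells (log2 fold change -2.02, SE 0.37, limma adjusted p = 0.000724), while the change in MyD88ko cells was -0.40 (SE 0.37, limma adjusted p = 0.577). Nkx2-3 changed by -0.37 in wt cells (SE 0.21, limma adjusted p = 0.246) and by 0.13 in MyD88ko cells (limma adjusted p = 0.786).

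1110019D14Rik (ENSMUSG00000097616), at chr6:13871526-14044385 on the plus strand, was listed at 0 in all 3 wt LPS libraries, against 13, 16 and 10 normalized read counts in wt untreated libraries (limma adjusted p = 0.000972). MyD88ko cells kept 2, 4 and 8 with LPS, against 7, 7 and 9 untreated. The groups do not overlap in wt cells, and in MyD88ko cells they overlap through LPS replicate 3. Since its mean reached 10 only in wt untreated cells, this lincRNA is a member through that group alone. Its start lies 8 bases from that of 2610001J05Rik, which is transcribed the other way and changed by -0.67 in wt cells (SE 0.26, limma adjusted p = 0.0741) and by -0.84 in MyD88ko cells (SE 0.26, limma adjusted p = 0.0609). The RefSeq promoter of 1110019D14Rik (chr6:13871319-13871618, plus strand, GRCm38.p6) is shown because it holds both start sites; capitals mark a GGAATG.
1110019D14Rik: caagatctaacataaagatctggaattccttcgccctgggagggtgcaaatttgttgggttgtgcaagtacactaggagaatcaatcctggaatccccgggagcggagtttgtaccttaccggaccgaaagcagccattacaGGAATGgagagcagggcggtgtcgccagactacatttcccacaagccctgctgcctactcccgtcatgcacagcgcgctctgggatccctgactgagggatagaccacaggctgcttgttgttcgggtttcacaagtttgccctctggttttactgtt

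Gm13166, at chr4:146251829-146278434 on the plus strand, had 28, 37 and 41 normalized read counts in wt LPS libraries, against 10, 12 and 6 in wt untreated libraries, a 3.59-fold rise (limma adjusted p = 0.00423). RP24-286J21.7, named Gm42047 in M21 and at chr8:121833247-121841178 on the plus strand, had 32, 36 and 46 in wt LPS, against 6, 20 and 9 in wt untreated libraries, a 3.39-fold rise (limma adjusted p = 0.00463). Neither call held when wt untreated replicates 1 and 3, the libraries with the highest epithelial sums, were both left out: the log2 fold changes were then 1.47 for Gm13166 (limma adjusted p = 0.122) and 0.88 for RP24-286J21.7 (limma adjusted p = 0.296), against 1.84 and 1.76 with all libraries. Gm7932 was low throughout, with 12, 7 and 11 in wt LPS libraries, against 0, 3 and 0 in wt untreated libraries (log2 fold change 2.76, SE 0.79, limma adjusted p = 0.0185), and it reached the minimum only in wt LPS cells. Omitting wt LPS replicate 1 or 3, or wt untreated replicate 1 or 3, ended its call, with adjusted p from 0.0575 to 0.0719, as did a fit of only the groups compared (0.0503). It lies 13258 bases from Tmem176a, a gene of a membrane protein, which rose with LPS in both genotypes, by 2.5-fold in MyD88ko (limma adjusted p = 0.00454) and 3.49-fold in wt cells (limma adjusted p = 7.58e-05).

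1810058I24Rik, at chr6:35252654-35263496 on the plus strand, had the highest level of the lincRNAs that rose. Its values were 1016, 1028 and 1852 in MyD88ko LPS libraries, against 762, 862 and 853 in MyD88ko untreated libraries, and 1094, 910 and 967 in wt LPS libraries, against 657, 533 and 600 in wt untreated libraries. LPS libraries stood above untreated libraries in both genotypes, but the change passed the test only in wt cells, at 1.66-fold (log2 fold change 0.73, SE 0.22, limma adjusted p = 0.0256), against 0.60 on the log2 scale in MyD88ko cells (SE 0.22, limma adjusted p = 0.12). The difference between these responses was -0.14 (limma adjusted p = 0.924). Leaving out wt untreated replicate 2 or 3, or wt LPS replicate 1 or 3, ended the call in wt cells, with adjusted p from 0.0508 to 0.0996.

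RP23-354I24.7, named Gm20735 in M21 and at chr8:122445268-122451322 on the minus strand, fell in both genotypes. It had 17, 6 and 9 normalized read counts in MyD88ko LPS, against 63, 29 and 72 in MyD88ko untreated libraries, and 10, 5 and 13 in wt LPS, against 24, 54 and 24 in wt untreated libraries. All 6 LPS libraries stood below all 6 untreated libraries. The log2 fold changes were -2.27 in MyD88ko cells (SE 0.52, limma adjusted p = 0.0127) and -1.74 in wt cells (SE 0.52, limma adjusted p = 0.0242). The call in MyD88ko cells was lost without MyD88ko untreated replicate 1 or 3 or MyD88ko LPS replicate 2, and that in wt cells without wt untreated replicate 2 or wt LPS replicate 1 or 2, with adjusted p up to 0.12.

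C030014I23Rik, at 18, 26 and 17 in wt LPS libraries against 42, 56 and 48 in wt untreated libraries, was 2.35-fold lower (limma adjusted p = 0.0205). Without wt untreated replicate 2, wt LPS replicate 1 or wt LPS replicate 3 its adjusted p was 0.065 to 0.0729. Its neighbour Bcl9l, a coactivator of Wnt signalling 16956 bases away, rose 2.94-fold in the same comparison (limma adjusted p = 0.00231). D930016D06Rik had 0, 13 and 6 in wt LPS libraries, against 17, 20 and 22 in wt untreated libraries (limma adjusted p = 0.0481), and was not called when any of wt LPS replicates 1 and 3 or the 3 wt untreated libraries was left out. D930016D06Rik reached the minimum only in the untreated groups, so the choice of members favoured a fall with LPS.

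Neat1, the scaffold of nuclear paraspeckles, at chr19:5824708-5845478 on the minus strand, had 183, 139 and 81 normalized read counts in MyD88ko LPS, 182, 121 and 257 in MyD88ko untreated, 147, 181 and 125 in wt LPS, and 294, 253 and 293 in wt untreated libraries. The wt untreated libraries stood above those of wt LPS, and the MyD88ko groups overlapped. These counts are per gene and do not tell apart the 4 transcripts that M21 gives Neat1, so the form that was read is not known. Neat1 was 1.87-fold lower in wt LPS than in wt untreated cells (log2 fold change -0.90, SE 0.30, limma adjusted p = 0.039), against -0.48 in MyD88ko cells (SE 0.30, limma adjusted p = 0.369). Snhg6 was 1.56-fold lower in wt LPS than in wt untreated cells (limma adjusted p = 0.0496). Both calls were fragile: that of Neat1 was lost in 7 of 17 alternatives and that of Snhg6 in 13 of 17, including the omission of any single wt untreated library and of wt LPS replicate 1.

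Malat1, at 467, 507 and 601 in wt LPS libraries against 252, 102 and 443 in wt untreated libraries, just missed the threshold (log2 fold change 1.21, SE 0.41, limma adjusted p = 0.0512), although its groups did not overlap. Without wt untreated replicate 3 it was called, at a log2 fold change of 1.70 (limma adjusted p = 0.00342), and without wt untreated replicate 2 the log2 fold change was 0.64 (limma adjusted p = 0.173). With LPS in MyD88ko cells its log2 fold change was 0.35 (SE 0.41, limma adjusted p = 0.675). Neat1 and Malat1, whose genes are neighbours on chromosome 19, thus had log2 fold changes of opposite sign in wt cells. For Malat1 too, the counts do not tell its 4 M21 transcripts apart.

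In MyD88ko cells LPS changed 3 of the 97 lincRNAs (3.09%), against 5.98% of all genes tested: Gm17501 rose, and RP23-354I24.7 and 1700018A04Rik fell. Of all genes 2.58% rose and 3.4% fell, and 21% had an unadjusted p under 0.05, as did 17 lincRNAs. Groups did not overlap for 13 lincRNAs that were higher and 12 that were lower in MyD88ko LPS cells, against 12.2% and 13.3% of all genes. Without MyD88ko untreated replicate 1, and likewise without replicate 2, 1 lincRNA was called. 1700018A04Rik had 2, 4 and 1 normalized read counts in MyD88ko LPS libraries, against 17, 23 and 5 in MyD88ko untreated libraries (log2 fold change -2.14, SE 0.62, limma adjusted p = 0.0448). In wt cells 1700018A04Rik had 8, 17 and 9 with LPS, against 21, 24 and 22 untreated (log2 fold change -0.99, limma adjusted p = 0.291). Leaving out MyD88ko untreated replicate 1 or 2, or MyD88ko LPS replicate 1 or 3, ended its call in MyD88ko cells. Its neighbour Foxq1, a forkhead gene 4516 bases away, stayed between 1 and 16 in all libraries and did not pass the test.

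**Figure D2:**
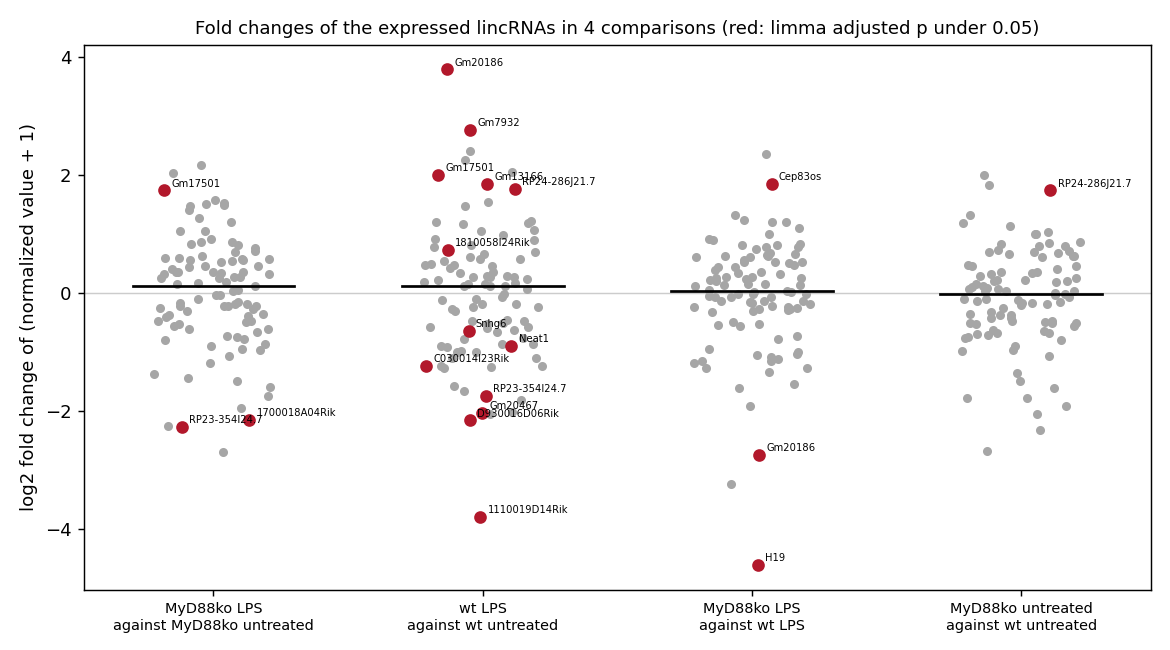
Log2 fold change of (normalized read count + 1) of each of the 97 lincRNAs in 4 comparisons, with called lincRNAs in red and a line at the median. Calls number 3, 13, 3 and 1 from left to right, and the 4 medians lie between -0.01 and 0.12.

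Across the 97 lincRNAs the LPS responses of both genotypes, which share no library, had the same sign in 66 cases (68.0%), against 69.7% of all genes tested. Pearson's r across lincRNAs was 0.447 and Spearman's rho 0.429, against 0.551 and 0.54 over all genes; genes are not independent replicates, and the points share the library series. The difference between the responses passed the test for 0 of 97 lincRNAs by limma, and for 0 by limma with voom weights, with 12 at an unadjusted p under 0.05, against 9.18% of all genes. Over all genes 0.0161% were called, 0.00807% in each direction. The median SE of this difference was 0.846 among lincRNAs, against 0.458 over all genes tested.

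**Figure D3:**
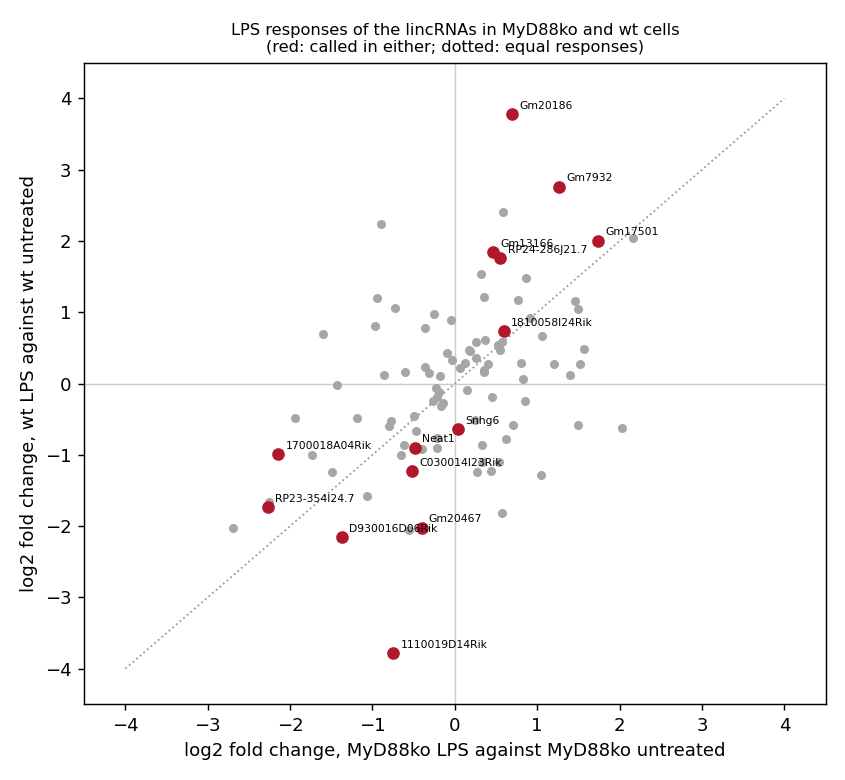
Log2 fold change with LPS in MyD88ko cells (horizontal) and in wt cells (vertical) of the 97 lincRNAs, with those called in either genotype in red and a dotted line where both are equal. Gm17501, at 1.74 and 2.00, lies near the line, and Gm20186, at 0.69 and 3.78, lies far above it.

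Ordered by p, the leading differences of response, MyD88ko minus wt, were in Gm20186 at -3.09 (SE 0.85), Gm20467 at 1.62 (SE 0.52), 1110019D14Rik, Jpx at -3.13 (SE 1.19), Cep83os at 1.64 (SE 0.65) and 5430416N02Rik at 1.20 (SE 0.49). Their limma adjusted p ran from 0.315 to 0.447. An LPS response that passed in wt and not in MyD88ko cells is thus not shown to differ between the genotypes for any lincRNA. 5430416N02Rik, the last of them, had 69, 53 and 119 normalized read counts in MyD88ko LPS, against 76, 62 and 46 in MyD88ko untreated libraries, and 36, 57 and 52 in wt LPS, against 75, 131 and 68 in wt untreated libraries.

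Between genotypes given LPS, 3 of 97 lincRNAs (3.09%) were called, against 1.49% of all genes tested: H19 and Gm20186 were lower and Cep83os higher in MyD88ko cells. Of the 52 lincRNAs that reached the minimum in all 4 groups, 0 were called, so all 3 calls fell on lincRNAs below the minimum in some group. Of all genes 1.04% were lower and 0.452% higher, and 12% had an unadjusted p under 0.05, as did 13 lincRNAs. Groups did not overlap for 9 lincRNAs that were higher and 8 that were lower in MyD88ko LPS cells, against 7.54% and 8.31% of all genes. Without wt LPS replicate 1 the count of called lincRNAs was 0, and without wt LPS replicate 2 or MyD88ko LPS replicate 3 it was 1. H19 (ENSMUSG00000000031, chr7:142575529-142578143 on the minus strand), an imprinted RNA that is abundant in fetal tissue and hosts miR-675, had 2, 9 and 0 normalized read counts in MyD88ko LPS, against 65, 225 and 28 in wt LPS libraries. All MyD88ko values stood below all wt values, which spread widely among themselves. H19 reached the minimum only in the wt groups, so the choice of members favoured lower values in MyD88ko cells, with LPS and untreated. The log2 fold change was -4.61 (SE 0.87, limma adjusted p = 0.011). Without MyD88ko LPS replicate 3 it was -3.79 (limma adjusted p = 0.0622), and without wt LPS replicate 1 it was -4.70 (limma adjusted p = 0.0505). H19 did not pass with voom weights either (limma adjusted p = 0.359), nor in an untrended limma fit (0.0554).

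In untreated cells H19 had 12, 7 and 7 in MyD88ko, against 18, 150 and 35 in wt libraries, again without overlap. The log2 fold change of -2.32 (SE 0.87) did not pass (limma adjusted p = 0.199). In the authors' deposited table H19 had an adjusted p of 0.000549 in untreated cells and of 4.97e-09 with LPS. Igf2, the reciprocally imprinted gene of the same domain, lies outside the rule for named genes and was chosen after its values were seen. It had 2, 13 and 7 in MyD88ko LPS and 4, 1 and 0 in MyD88ko untreated libraries, against 19, 117 and 27 in wt LPS and 22, 61 and 17 in wt untreated libraries. Igf2 was lower in MyD88ko than in wt cells when untreated (log2 fold change -3.78, SE 0.78, limma adjusted p = 0.0131) and did not pass with LPS (-2.54, SE 0.78, limma adjusted p = 0.138). The nearest tested protein-coding gene by the rule, Mrpl23, 34782 bases from H19, changed by 0.04 between genotypes with LPS (limma adjusted p = 0.971).

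Gm20186 was 6.67-fold lower in MyD88ko LPS than in wt LPS cells (log2 fold change -2.74, SE 0.60, limma adjusted p = 0.0217). The call was lost without MyD88ko LPS replicate 1 or 3, or without wt LPS replicate 1 or 2, with adjusted p from 0.0554 to 0.183, and by limma without trend (0.0917). Untreated, it differed by 0.35 between genotypes (SE 0.60, limma adjusted p = 0.838). Cep83os, at chr10:94673493-94688613 on the minus strand and typed in M21 as sharing a bidirectional promoter, had 28, 22 and 60 in MyD88ko LPS, against 7, 10 and 9 in wt LPS libraries, and was 3.59-fold higher (limma adjusted p = 0.0475). Leaving out any 1 of these 6 libraries ended that call.

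Among untreated cells 1 of 97 lincRNAs (1.03%) was called between genotypes, against 1.88% of all genes tested, 0.791% higher and 1.09% lower. An unadjusted p under 0.05 was found for 18 lincRNAs, against 15.5% of all genes. Groups did not overlap for 8 lincRNAs that were higher and 6 that were lower in MyD88ko untreated cells, against 10.5% and 9.89% of all genes. RP24-286J21.7 had 35, 31 and 46 normalized read counts in MyD88ko untreated libraries, against 6, 20 and 9 in wt untreated libraries, and was 3.33-fold higher in MyD88ko cells (limma adjusted p = 0.0323). With LPS it had 61, 51 and 52 in MyD88ko, against 32, 36 and 46 in wt libraries (log2 fold change 0.52, limma adjusted p = 0.668). The untreated call did not hold without wt untreated replicate 1 or 3 or without any 1 of the MyD88ko untreated libraries, and without both wt replicates 1 and 3 the log2 fold change was 0.85 (limma adjusted p = 0.757). The part in this result of the high epithelial marker sums, mostly Gata3, in wt untreated replicates 1 and 3 was not tested. Gm26917 had an adjusted p of 0.0259 in the authors' deposited table for untreated genotypes; by limma its log2 fold change was -1.49 (SE 0.53, adjusted p = 0.196).

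Across both genotype comparisons, which share no library, the sign was the same for 53 of 97 lincRNAs (54.6%), against 54.5% of all genes tested.

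Of 85 well-studied lncRNAs on 7 lists, 20 were among the 97, and 3 of those 20 were called in any comparison, namely Neat1, Snhg6 and H19. That is 15% of the 20, against 16.5% of the 97 lincRNAs and 22.3% of all genes tested. The list of nuclear-body and chromatin RNAs held 5 members, of which 1, Neat1, fell in wt LPS cells; the median log2 fold change of the 5 was 1.21, that of Malat1. Xist, which coats and silences the inactive X chromosome, had 26, 29 and 9 normalized read counts in MyD88ko LPS, 7, 12 and 12 in MyD88ko untreated, 30, 60 and 21 in wt LPS, and 7, 21 and 10 in wt untreated libraries. Its log2 fold change with LPS was 0.86 in MyD88ko (SE 0.56, limma adjusted p = 0.398) and 1.48 in wt cells (SE 0.56, limma adjusted p = 0.0695), with overlap in MyD88ko cells and a shared value of 21 in wt cells.

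Jpx, an RNA of the X-inactivation centre known as an activator of Xist, had 4, 2 and 0 in MyD88ko LPS, 3, 5 and 3 in MyD88ko untreated, 26, 50 and 8 in wt LPS, and 2, 2 and 12 in wt untreated libraries. It reached the minimum only in wt LPS cells, and there 2 of 3 libraries were above all others. Its log2 fold change with LPS was 2.24 in wt cells (SE 0.84, limma adjusted p = 0.069), and MyD88ko LPS differed from wt LPS cells by -3.23 (SE 0.84, limma adjusted p = 0.0629). Each passed in 4 alternatives and failed in the others: the adjusted p ran from 0.0323 to 0.26 for wt LPS and from 0.0396 to 0.257 between genotypes, lowest between genotypes without wt LPS replicate 3, the library with 8, and highest in both without wt LPS replicate 2, the library with 50. Ftx, of the same locus, stayed between 1 and 27 and was called nowhere.

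The list of imprinted RNAs held H19, Meg3 and Mirg. Meg3 and Mirg come from the maternally expressed strand of the Dlk1 domain, and Mirg hosts a large group of microRNAs. Meg3 had 131, 124 and 181 in MyD88ko LPS, against 111, 77 and 103 in MyD88ko untreated libraries, and 123, 228 and 139 in wt LPS, against 90, 104 and 123 in wt untreated libraries. Its log2 fold change was 0.57 in MyD88ko (SE 0.27, limma adjusted p = 0.23) and 0.58 in wt cells (SE 0.27, limma adjusted p = 0.144). Mirg had 13, 28 and 35 in wt LPS, against 5, 8 and 10 in wt untreated libraries (log2 fold change 1.54, SE 0.60, limma adjusted p = 0.0781). On the list of microRNA hosts, H19, Meg3, Pvt1 and Mirg were measured, and H19 was the only one called, in MyD88ko LPS against wt LPS cells.

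**Figure D4:**
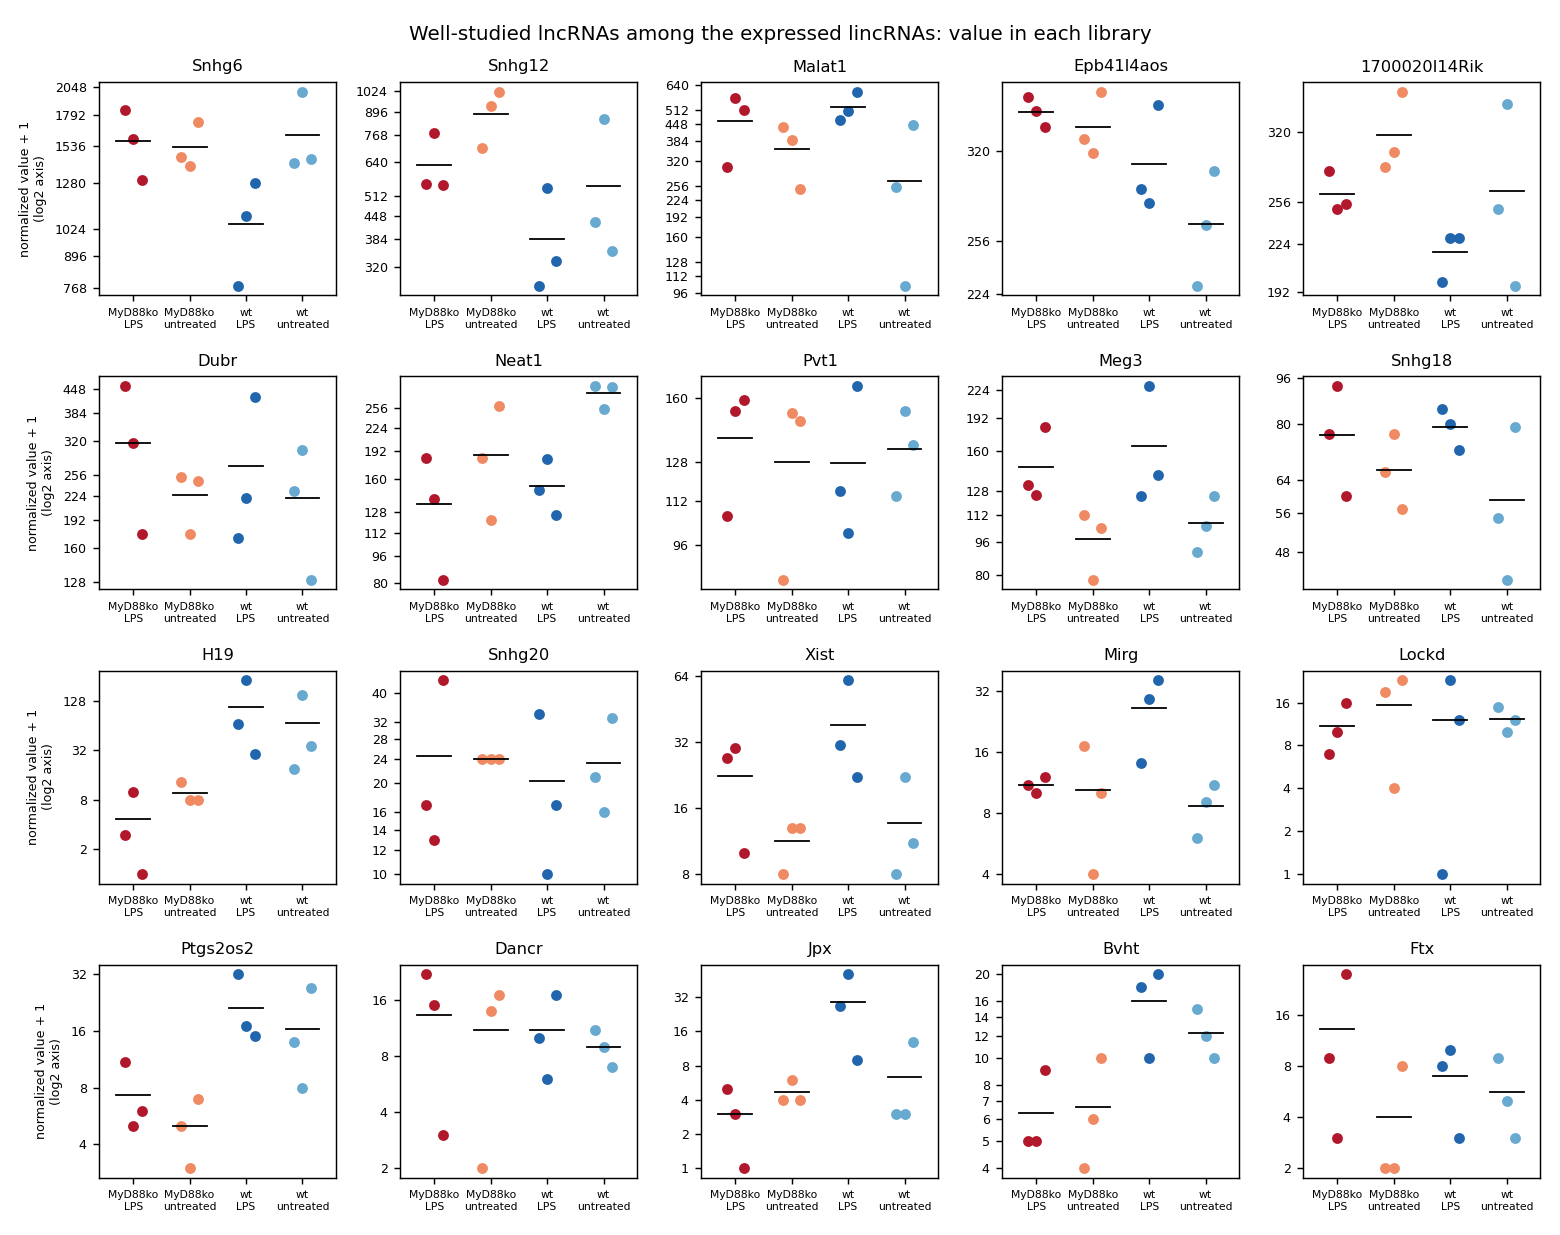
Normalized read count plus 1 (log2 axis) of the 20 well-studied lncRNAs among the 97, ordered by mean level, with a point for each library and a line at the group mean. Snhg6 lies between 775 and 2002 in all libraries, and H19 at 0 to 12 in the 6 MyD88ko libraries, against 18 to 225 in the 6 wt libraries.

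Of the 6 snoRNA hosts measured, Snhg6 fell in wt LPS cells and the others (Dancr, Snhg12, Snhg20, Epb41l4aos and Snhg18) were called nowhere. Snhg12 had 552, 774 and 550 in MyD88ko LPS, 701, 928 and 1019 in MyD88ko untreated, 281, 537 and 330 in wt LPS, and 428, 849 and 354 in wt untreated libraries. Its difference between genotypes was 0.74 with LPS (SE 0.30, limma adjusted p = 0.299) and 0.79 untreated (SE 0.30, limma adjusted p = 0.191). The untreated difference was called when wt untreated replicate 2, the library with 849, was left out (adjusted p = 0.0214), and was 0.04 with wt untreated replicates 1 and 3 left out (adjusted p = 0.997).

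Inflammation, stress and p53 linked RNAs were represented by Meg3, Neat1, Pvt1, Ptgs2os2 and Lockd, of which Neat1 alone was called. Ptgs2os2, which lies 50816 bases from the cyclooxygenase gene Ptgs2, had 10, 4 and 5 in MyD88ko LPS and 4, 2 and 6 in MyD88ko untreated libraries, against 31, 16 and 14 in wt LPS and 13, 7 and 26 in wt untreated libraries. Both MyD88ko groups lay below their wt groups without overlap. Ptgs2os2 reached the minimum only in the wt groups, so the choice of members favoured this direction. The log2 fold changes were -1.54 with LPS (SE 0.63, limma adjusted p = 0.313) and -1.62 untreated (SE 0.63, limma adjusted p = 0.205). Pvt1, whose locus neighbours Myc, stayed between 84 and 166 in all libraries, with log2 fold changes with LPS of 0.14 in MyD88ko (SE 0.28) and -0.10 in wt cells (SE 0.28).

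None of the 3 cytoplasmic and translation linked RNAs was called in any of the 5 comparisons: Dubr, 1700020I14Rik (Cyrano, which promotes the destruction of miR-7) and Epb41l4aos. Cyrano had 281, 249 and 253 in MyD88ko LPS, 285, 299 and 362 in MyD88ko untreated, 197, 227 and 227 in wt LPS, and 249, 348 and 195 in wt untreated libraries. The list of mesenchyme, muscle and development RNAs held H19, Meg3 and Bvht, and H19 was again the only one called. Bvht, known as Braveheart for its role in the cardiac lineage of the mouse, had 4, 4 and 8 in MyD88ko LPS, against 17, 9 and 19 in wt LPS libraries (log2 fold change -1.33, SE 0.60, limma adjusted p = 0.369). Bvht too reached the minimum only in the wt groups, so the choice of members favoured lower values in MyD88ko cells. The lists overlap, so H19, Meg3, Neat1, Mirg, Pvt1 and Epb41l4aos may be counted more than once.

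Changes of divergent lincRNAs with LPS were set beside those of their protein-coding partners. Across the 24 divergent pairs, the sign of the change in wt LPS against wt untreated cells was the same in 13 and Pearson's r was 0.0168; in MyD88ko cells the sign was the same in 13 and r was 0.186. In wt cells 3 of the lincRNAs and 5 of the partners were called, and both members of 1 pair, Gm20186 and Lsm8, which changed in opposite directions. For all pairs, neighbours spanning 1 Mb or more were passed over for the next nearest, a limit set after some such neighbours had been seen. Without it 75 lincRNAs had a tested protein-coding neighbour within 50 kb, and with it 73 had. Across these 73 the sign was the same in 36 and r was 0.0483 in wt cells. For 3 of these both genes were called, and 1 of the 3, Gm7932 with Tmem176a, changed in the same direction. Between untreated genotypes r across divergent pairs was 0.423, with the same sign in 17 of 24, and no gene of a pair was called. These values describe pairs measured in the same libraries and carry no test.

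**Figure D5:**
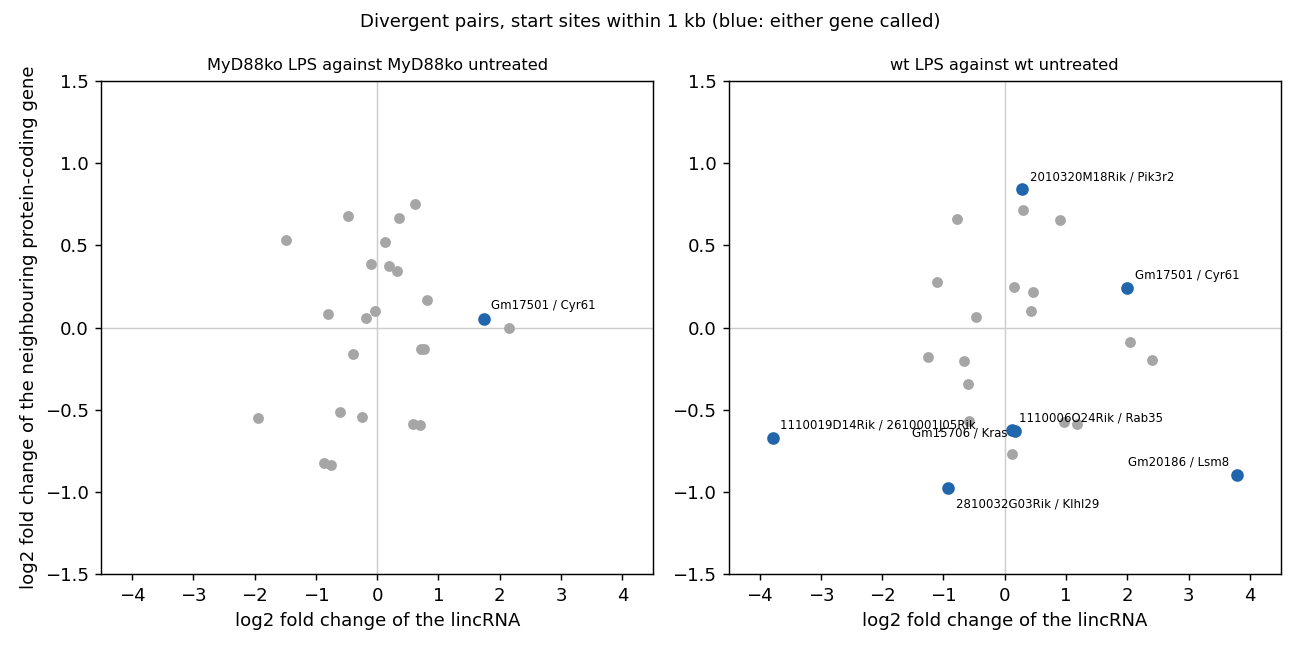
Log2 fold change with LPS of the lincRNA (horizontal) and of its divergently transcribed protein-coding neighbour (vertical) for 24 pairs, in MyD88ko cells on the left and wt cells on the right, with pairs in blue where either gene was called. In wt cells Gm20186 lies at 3.78 and Lsm8 at -0.90, and in both panels Cyr61 lies near 0 while Gm17501 lies at 1.74 and 2.00.

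The authors' deposited table called 4 of the 97 lincRNAs (4.12%) at an adjusted p under 0.05 in wt LPS against wt untreated cells, against 4.35% of all its genes, namely Gm20186, Gm17501, Gm20467 and 1110019D14Rik, and all 4 were also called by limma. For LPS in MyD88ko cells the authors' deposited table called 0 lincRNAs and 0.755% of all its genes, and limma called 3 lincRNAs. For the genotypes with LPS the authors' deposited table called H19 and Gm20186 (2.06%, against 0.544% of its genes), also among limma's 3. For untreated genotypes it called H19 and Gm26917 (2.06%, against 1.6% of its genes), neither of which passed limma. The authors' shares cover every gene with a deposited adjusted p, including genes below the minimum that the 97 lincRNAs met. The sets compared are thus unlike.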

How the data were processed

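In 12 libraries, 3 per group, RNA was sequenced from its 3′ end on an Ion Proton. Per the submitters' processing notes the authors used TopHat2, Bowtie2 and DESeq with build mm10; versions and roles are not given in the sources used here. The authors deposited, for each of 4 comparisons, a score per gene and library, which is a normalized read count rounded to whole numbers, with their p-value and adjusted p; a deposited fraction gives GC content. Of 166719 values given in 2 tables, 0 differed. Rounding leaves gaps among low values, and from these each library's depth was estimated, over size factors from 0.4 to 1.6.

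limma 3.58.1 (R 4.3.3; trended, robust) was fitted once to log2(value + 1) of all 12 libraries. Each group had its own coefficient, which left 8 residual degrees of freedom, and the script was tested on simulated data. Adjusted p-values (Benjamini-Hochberg, two-sided) cover the 12385 genes tested, in each of 5 comparisons, and calls are at 0.05. All folds come from log2(value + 1), which understates changes at low values.

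Members and lists were chosen with earlier results of these data known. Named were the first 12 called lincRNAs per comparison whose groups did not overlap (for the difference of responses, the first 6 by p), and every lincRNA on a studied list. The nearest tested protein-coding gene within 50 kb is given for part of them only. Ptgs2 was named although it lies beyond that limit. Also tried were quantile normalization, a TMM-like rescaling, pseudocounts of 0.5 and 5, no low-value filter or a mean of 50, limma without trend, voom weights, a replicate block, only the groups compared, and libraries left out.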

Additional observations from a re-analysis of the deposited data

How the results depend on the processing

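Besides the counts, alternatives were run for called lincRNAs, studied lincRNAs with an unadjusted p under 0.05 and the 6 leading differences of response. None of these log2 fold changes changed direction, but they had been chosen for a low p, which makes a change of sign unlikely. Igf2, the protein-coding neighbours and the correlations were not run under the alternatives. The count of lincRNAs called in wt LPS against wt untreated cells was 13, 8 without wt untreated replicates 1 and 3, and 6 to 12 with single libraries left out, the lowest without wt LPS replicate 1. In MyD88ko LPS against MyD88ko untreated cells it was 3, and 1 to 2 with single libraries left out, the lowest without MyD88ko untreated replicate 1 or 2. For MyD88ko untreated against wt untreated cells it was 1, 0 by limma without trend, with voom weights and with only the groups compared, and 0 to 2 with single libraries left out. For MyD88ko LPS against wt LPS cells it was 3, 1 with voom weights, and 0 to 4 with single libraries left out, the lowest without wt LPS replicate 1. The difference of the responses had 0 calls, 1 without wt untreated replicates 1 and 3, and 0 to 1 with single libraries left out, the highest without wt untreated replicate 3. Fits that leave a group with 1 library assume that it varies like the others. In wt cells Gm20186, Gm20467 and Gm17501 were called under all 17 alternatives run, and 1110019D14Rik under all 16 run for it. The filter at a mean of 50 left 1110019D14Rik out, its highest group mean being 13, in wt untreated cells. That group alone made 1110019D14Rik a member and is the higher group of its call. The choice of members thus favoured a difference there, which these alternatives do not remove.

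Same-numbered libraries did not deviate together (r from -0.114 to 0.171, 2 of 18 pairs over 0.1), so the numbers were not taken to pair them; with a replicate block the counts were 13, 4, 1, 3 and 0 in the same order. Members had larger SEs than genes as a whole: their median SE of a log2 fold change was 0.598, against 0.324 over all genes tested. At an overall mean under 20 it was 0.762 against 0.658, from 20 to 100 it was 0.423 against 0.379, and at 100 or more 0.296 against 0.247. A p that missed the threshold does not show that levels were alike.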
